A study of Mus musculus with 14 samples.

Results

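Transcript abundance was described in the livers of 5 mice kept on a standard diet, which were 5 of the 14 arrays of a study of diet and resveratrol. The members were the arrays titled as standard-diet controls 1 to 5, called mouse 1 to mouse 5 here. They came from male C57BL/6 mice 1 year old, fed the purified AIN-93G diet ad libitum, with 1 animal per array. The other 9 arrays, 5 from mice on a high-calorie diet with 60% of calories from fat and 4 from mice on that diet with 0.04% resveratrol, were not used. The RNA of each liver was labelled with the dye Cy3 and hybridised to an Agilent whole-genome mouse array beside a pool of 5 standard-diet livers labelled with Cy5. The labels do not say whether the pool was made from these 5 mice. The question was which transcripts gave the brightest Cy3 signals in this liver, what their products do, and which transcripts lay near background.

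The liver makes most of the proteins of blood plasma, among them albumin, the apolipoproteins that carry fat, the clotting factors and complement. Its main cell, the hepatocyte, also burns and makes fatty acids, stores and releases glucose, turns ammonia into urea, makes bile acids and clears foreign compounds. A level here is the log2 of the scanner's processed Cy3 signal, given as the median of the 5 mice with its SD over them (n = 5). A gene was represented by its brightest probe, which ranked 15940 genes. The brightness of a probe also depends on how well that probe hybridises, so the order of genes describes brightness and not amounts of RNA, and no fold between genes is given. Probes of close gene families (Mup, Serpina, Ces, Cyp2d, Gst, Saa and ribosomal proteins) can also bind each other's transcripts, so a level given to one member is uncertain. In whole liver, fewer cells of a type and less RNA per cell cannot be told apart.

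Each array held 41174 distinct probes. Between 77.9% and 88.3% of spots were well above background in Cy3, the scanner software's own flag for a spot brighter than its surroundings. The 100 brightest probes of an array carried 19.8% to 22.4% of its net signal. The software's step from net to processed signal differed between arrays. Above a net signal of 10000 the processed Cy3 value was 19.3, 28.9, 16.3, 18.4 and 13.1 times the net signal for mice 1 to 5, highest for mouse 2 and lowest for mouse 5, and the part of this in differences between mice was not tested. At the top of the scale the scanner saturated. Saturated Cy3 spots read a log2 of 20.28, 20.90, 20.04, 20.20 and 19.72 on the arrays of mice 1 to 5, and 2, 2, 6, 2 and 8 of the 10 brightest genes sat at that ceiling. The order among the 8 brightest genes was therefore not resolved. Across pairs of mice the rank correlation over all genes was 0.961 to 0.985, a description across genes, which are not replicates. Any 2 mice shared 81 to 91 of their 100 brightest genes, and 78 genes were among the 100 brightest of every mouse.

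The brightest gene was Apoe, apolipoprotein E, which carries cholesterol-rich particles to their receptors. Its log2 levels in mice 1 to 5 were 20.14, 20.40, 20.04, 20.20 and 19.72 (SD 0.25), at the ceiling in 3 mice. Alb, serum albumin, read 20.28, 20.12, 20.04, 20.20 and 19.72 (SD 0.22), at the ceiling in 4 mice. The levels of the 2 genes overlapped in full, as both were limited by the scanner. Mup4, a major urinary protein that carries pheromones into urine, read 20.06, 20.90, 20.04, 20.12 and 19.72 (SD 0.44). Serpina1d, an alpha-1-antitrypsin that inhibits neutrophil elastase, read 20.28, 20.64, 20.04, 19.67 and 19.72 (SD 0.40). Apoc1, a small apolipoprotein, read 20.17, 20.78, 20.04, 19.98 and 19.72 (SD 0.39). All 3 genes were at the ceiling in mice 3 and 5, so those values are lower bounds and the mice cannot be put in order. Mup1 (19.85, SD 0.50) and Ahsg, fetuin-A (19.72, SD 0.18), came next. Fabp1, the fatty acid binding protein of the hepatocyte cytosol, was the first gene in the order whose product stays in the cell, with levels of 19.31, 20.09, 19.42, 19.28 and 19.72 (SD 0.34).

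Below the ceiling stood C3, the central complement protein, with levels of 18.98, 19.20, 19.20, 19.36 and 19.33 (SD 0.15). Fgb, the beta chain of fibrinogen, read 18.79, 19.07, 19.44, 19.14 and 19.53 (SD 0.30), and Ambp, the precursor of alpha-1-microglobulin and bikunin, 18.86, 19.08, 19.18, 19.22 and 19.06 (SD 0.14). These 3 genes overlapped in range and cannot be put in order beyond the spread between mice. Rbp4, the plasma carrier of retinol, had a median of 18.88 (SD 0.27). Gstp1, a glutathione S-transferase of the cytosol, was the most variable of the 40 brightest genes that never saturated, with levels of 18.52, 18.78, 19.13, 19.19 and 17.71 (SD 0.60), lowest in mouse 5. Rplp1, an acidic protein of the large ribosomal subunit at 18.50 (SD 0.32), and Sod1, the cytosolic superoxide dismutase at 18.34 (SD 0.12), closed the first 20 together with Fgg, the gamma chain of fibrinogen (18.23, SD 0.35).

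**Figure D1:**
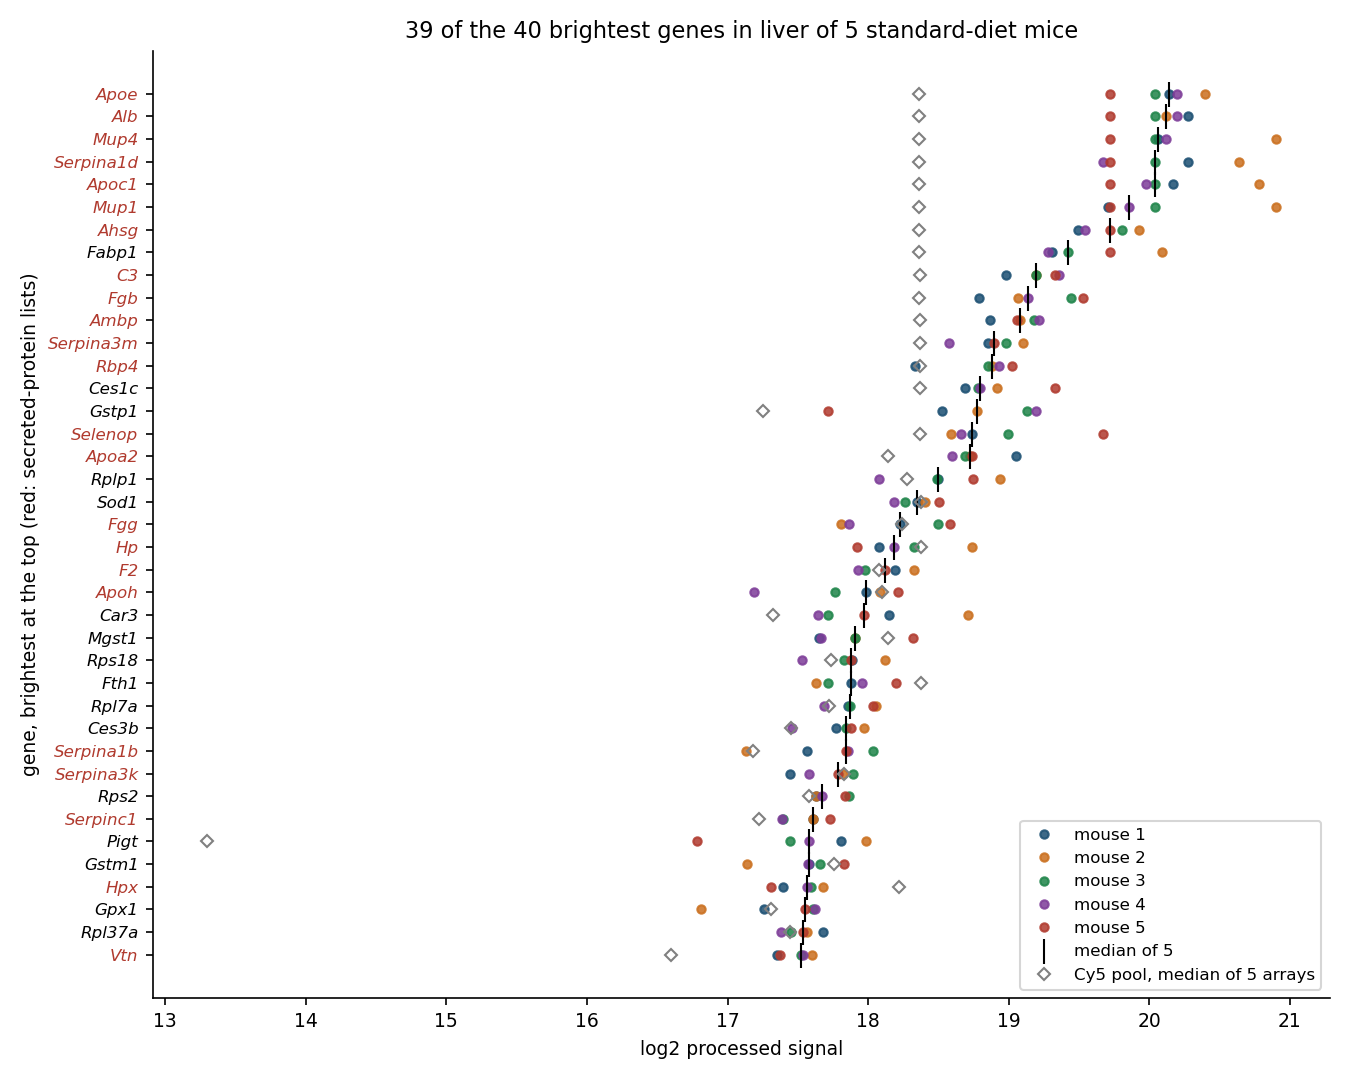
Log2 processed Cy3 signal (horizontal axis) of 39 of the 40 brightest genes (vertical axis), with 1 coloured point per mouse, a black bar at the median of 5 mice and an open diamond at the median of the Cy5 pool over 5 arrays. Gene names in red are in the secreted-protein lists. Points of different genes line up at the array ceilings, such as 19.72 for mouse 5, and the Cy5 diamonds of the brightest genes line up at the lower Cy5 ceiling near 18.36.

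Secreted proteins filled the top of the order. They made up 9 of the 10 brightest genes, 15 of the first 20, 24 of the first 50 and 30 of the first 100. The secreted lists held 139 measured genes, and the 100 brightest are 0.627% of all genes. The median secreted gene had a log2 level of 14.28 against 10.07 for all 15940 genes, and 79 of the 139 were among the 1000 brightest, which are 6.27% of all genes. Cytosolic ribosomal proteins were next in number, with 0 of the first 10, 6 of the first 50 and 16 of the first 100. Subunits of the respiratory chain and ATP synthase gave 9 of the first 100, and enzymes of conjugation and reduction of foreign compounds gave 7. Of the 100 brightest genes 80 were in at least 1 function list. These lists were chosen with earlier results of these data known, and the share of all genes in any of them was not counted. The edge of the first 100 was not sharp, since Cfb at rank 100 and Fasn at rank 101 both had a level of 16.56.

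**Figure D2:**
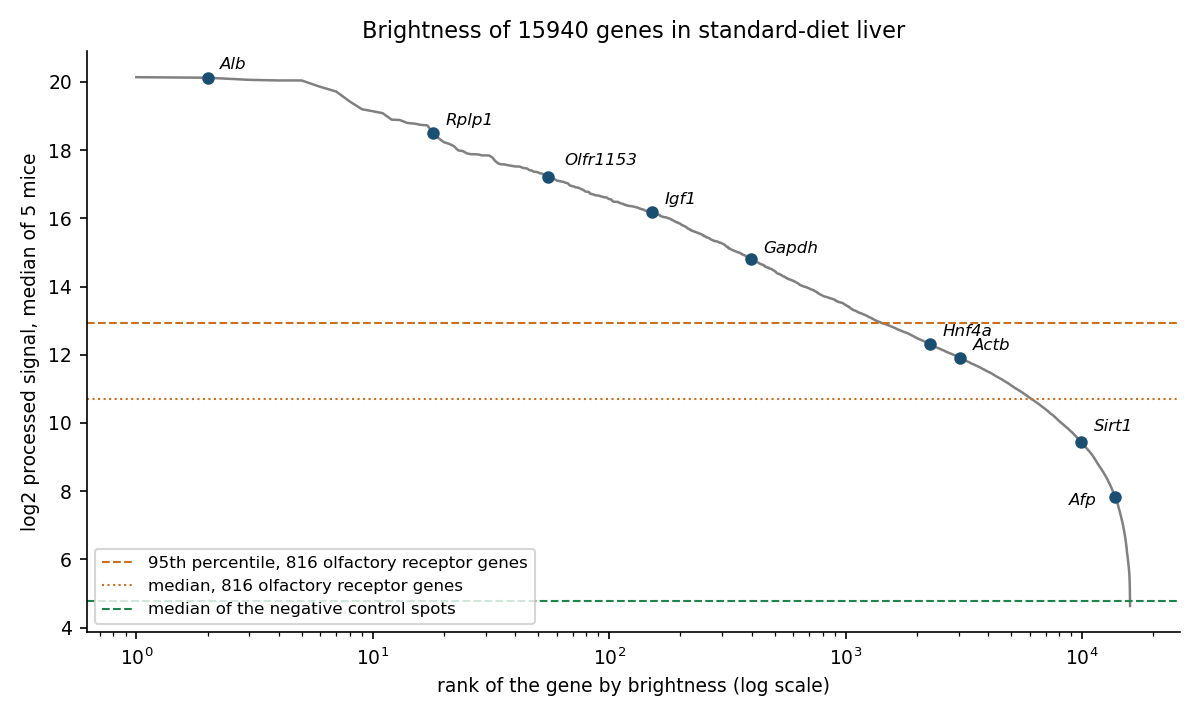
Log2 processed Cy3 signal, median of 5 mice (vertical axis), against the rank of each of 15940 genes on a log scale (horizontal axis). The grey line is all genes, named points are examples, the orange lines are the 95th percentile and the median of 816 olfactory receptor genes, and the green line is the median of the negative control spots. The line is flat at the scanner ceiling on the left and crosses the orange dashed line at 1408 genes.

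The start regions of some of these genes are shown because short motifs linked to liver or general transcription were more or less frequent among the brightest genes than among all genes. Windows from 250 bases before to 50 bases after the annotated start were taken from RefSeq (build GRCm38.p6), and 75 of the 100 brightest genes and 12652 of all ranked genes had one. Motifs were searched as exact letters on both strands. GTTAAT occurred in 9 of the 21 secreted genes among the 100 brightest that had a window (42.9%), in 24.0% of all 100 brightest and in 7.07% of all genes with a window. TATAAA, the core of the TATA box, occurred anywhere in the window in 29.3% of the 100 brightest and 13.9% of all genes. Between 40 and 16 bases before the start on the gene's own strand, it occurred in 9.33% and 2.95%. TGTTTAC, a forkhead site, occurred in 9.33% and 3.51%. GGGCGG, the GC box, went the other way, with 34.7% of the 100 brightest, 4.76% of the secreted genes among them and 55.5% of all genes, while 61.7% of ribosomal protein genes held it. CCAAT was about as frequent in the 100 brightest (41.3%) as in all genes (42.6%). TTATGTAA, a site of C/EBP and PAR factors, was rare in both (2.67% and 0.893%). Median GC content was 52.3% in the 100 brightest and 58.0% in all genes. A match of letters is not a binding site, and whether base composition accounts for these shares was not tested.

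The 100 bases before the start are printed 5′ to 3′ on the gene's strand, with the motif in capitals. GTTAAT is marked in Alb (chr5:90460770-90460869, plus strand, 32 bases before the start) and in Serpina1d (chr12:103773634-103773733, minus strand, 16 bases before it). TATAAA is marked in Mup4 (chr4:59960668-59960767, minus strand, 27 bases before the start) and in Fabp1 (chr6:71199779-71199878, plus strand, 30 bases before it). Apoe, the brightest gene, held TATAAA further away, 96 bases before its start, and is not printed. GGGCGG is marked in Gstp1 (chr19:4037913-4038012, minus strand, 60 bases before the start) and in Sod1 (chr16:90220662-90220761, plus strand, 98 bases before it), whose products stay in the cell. Only the motif named for a gene is in capitals, and the Sod1 stretch also holds TATAAA in lower case.
Alb: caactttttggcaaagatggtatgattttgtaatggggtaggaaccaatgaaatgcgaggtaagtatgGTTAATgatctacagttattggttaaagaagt
Serpina1d: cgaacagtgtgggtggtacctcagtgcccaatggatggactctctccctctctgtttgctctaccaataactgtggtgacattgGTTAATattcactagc
Mup4: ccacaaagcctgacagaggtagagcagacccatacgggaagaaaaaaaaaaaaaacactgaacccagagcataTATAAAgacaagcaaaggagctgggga
Fabp1: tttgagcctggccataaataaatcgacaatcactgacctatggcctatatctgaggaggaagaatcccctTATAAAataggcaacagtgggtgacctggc
Gstp1: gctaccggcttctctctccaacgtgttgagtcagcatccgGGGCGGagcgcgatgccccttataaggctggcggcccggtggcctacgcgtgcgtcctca
Sod1: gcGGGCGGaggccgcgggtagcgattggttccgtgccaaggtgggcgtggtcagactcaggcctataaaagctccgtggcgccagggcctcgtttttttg

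Among secreted proteins the plasma carriers had the highest median of any list with more than 4 measured genes. Of 20 measured, 10 were among the 100 brightest and 19 were well above background in all 5 mice, a flag met by 13429 of all 15940 genes (84.2%), and their median level was 16.73. Beside Alb, Ahsg, Ambp and Rbp4 it held Selenop, which carries selenium to other organs (18.74, SD 0.44, highest in mouse 5 at 19.67), and Hp, haptoglobin, which binds free haemoglobin (18.19, SD 0.31). Apoh, a glycoprotein that binds phospholipid, read 17.99 (SD 0.41), and Hpx, hemopexin, which binds haem, 17.56 (SD 0.15). At the other end the steroid and thyroid hormone carriers Serpina6 and Serpina7 read 12.73 (SD 0.54) and 11.64 (SD 0.51). Afp, the albumin relative of the fetal liver, was dim at 7.82 (SD 0.24) and well above background on 4 arrays.

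Apolipoproteins and plasma lipoprotein enzymes had a median of 16.14 over 17 genes, with Apoe, Apoc1 and Apoa2 (18.72, SD 0.17) among the 100 brightest. Apoa2 and Apoa1 are the main proteins of high-density lipoprotein. Apoa1 read 16.34, 16.29, 16.68, 15.79 and 15.80 (SD 0.38), and Apoc4 (16.46, SD 0.13) and Apoc3 (16.39, SD 0.09) were close to it. Apoc3 was among the steadiest of these genes, and its 5 levels lay between 16.29 and 16.51. Apoa4 was lower and spread more, at 10.60, 10.28, 10.89, 12.08 and 11.40, highest in mouse 4. The dimmest members were Lipc, hepatic lipase (10.44, SD 0.29), and Pltp, the phospholipid transfer protein (8.09, SD 0.67), which was well above background on 4 arrays.

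Protease inhibitors of plasma had a median of 15.00 over 23 genes, and 6 of them were among the 100 brightest. These were Serpina1d, Serpina1b (17.84, SD 0.35), Serpina3m (18.89, SD 0.19), Serpina3k (17.79, SD 0.19), Serpinc1 or antithrombin (17.61, SD 0.15) and Mug1, murinoglobulin (17.46, SD 0.16). The Serpina1 and Serpina3 members belong to close gene families in the mouse, so their separate levels are uncertain. Serpina3f was dim at 8.70 (SD 0.23). A2m, alpha-2-macroglobulin, read 6.11, 7.26, 7.44 and 6.37 in mice 1, 2, 3 and 5, had no usable spot in mouse 4, and was well above background on 1 array.

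Coagulation and fibrinolysis factors had a median of 13.75 over 22 genes, of which 5 were among the 100 brightest. The bright ones were Fgb, Fgg, F2 or prothrombin (18.12, SD 0.16), Vtn or vitronectin (17.52, SD 0.11) and Kng1 or kininogen (17.16, SD 0.12). Plg, plasminogen, followed at 16.35 (SD 0.23). The 3 chains of fibrinogen did not stand together, since Fga, the alpha chain, read 14.51, 13.46, 15.46, 14.80 and 14.96, lowest in mouse 2 and below Fgb and Fgg in every mouse. Each chain has its own probe, so this difference in brightness cannot be read as a difference in RNA. F9, clotting factor IX, was near the middle of all genes at 10.35 (SD 0.23), and Habp2 was dim at 6.71 (SD 0.54) and well above background on 1 array.

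Complement factors and plasma lectins had a median of 14.21 over 18 genes. All of them were well above background in every mouse, as were 84.2% of all genes. Behind C3 came Hc, complement C5 (16.82, SD 0.26), and Cfb, factor B of the alternative pathway (16.56, SD 0.29). The regulator Cfi read 16.20 (SD 0.26). Mbl2, a mannose-binding lectin, read 15.83 (SD 0.30). C6 and C9, parts of the membrane attack complex, read 11.73 (SD 0.20) and 11.29 (SD 0.31). Cfd, factor D or adipsin, which is mainly a product of fat cells, was the dimmest of the list at 8.72 (SD 0.58).

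Major urinary proteins were bright but poorly resolved, since 4 of the 21 listed genes had a probe matched to them. Mup4 and Mup1 were at the ceiling in 3 mice each. Mup5 read 16.60, 17.07, 16.48, 15.68 and 16.16, and Mup3 15.19, 16.28, 15.33, 15.00 and 15.35. Mouse 2 read highest for both Mup5 and Mup3. Its array had the highest factor from net to processed signal, both for net signals of 20 to 50 (8.64) and above 10000 (28.9). The part of this factor in its Mup levels was not tested. Among the brightest probes, 2 more that the files describe as Mup3 but that were not matched to the gene read 20.04 and 17.35, so the probes under that name lay far apart.

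Hormones, growth factors and their binding proteins formed a middling list, with a median of 12.48 over 25 genes and 1 gene, Rarres2 or chemerin (16.90, SD 0.12), among the 100 brightest. Igf1, which the liver releases under growth hormone, read 15.88, 16.19, 16.24, 15.98 and 16.35 (SD 0.19), and its second probe had a median of 14.79. Hamp, hepcidin, the regulator of iron export, read 15.89, 15.22, 15.91, 16.02 and 16.29 (SD 0.39). Both were well clear of the median of all genes in every mouse. Agt, angiotensinogen, read 15.68 (SD 0.26). Epo, a kidney hormone in the adult, read 8.78 (SD 0.17), and Fst, follistatin, 8.27 (SD 0.43) on 4 arrays well above background.

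The list of acute phase proteins, which the liver releases in inflammation, had the lowest median of the secreted lists, 11.07 over 10 genes, with none among the 100 brightest. This follows in part from how the lists were drawn, since Hp, Hpx, the fibrinogen chains and C3, which are acute phase proteins too, were placed in the lists of carriers, coagulation and complement. The brightest were the serum amyloids Saa2 at 14.13, 14.57, 14.48, 14.37 and 14.21 (SD 0.18), Saa4 at 13.73 (SD 0.29) and Saa1 at 12.96 (SD 0.14, lowest in mouse 1 at 12.71). Apcs, serum amyloid P, read 11.50 (SD 0.23) and Crp, C-reactive protein, 11.23 (SD 0.52). The 5 mice agreed closely on the Saa genes, whose highest and lowest mouse differed by less than 1 log2 unit. Lcn2, lipocalin 2, read 8.39, 8.61, 8.59, 8.32 and 8.27, below the median of all genes in every mouse.

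**Figure D3:**
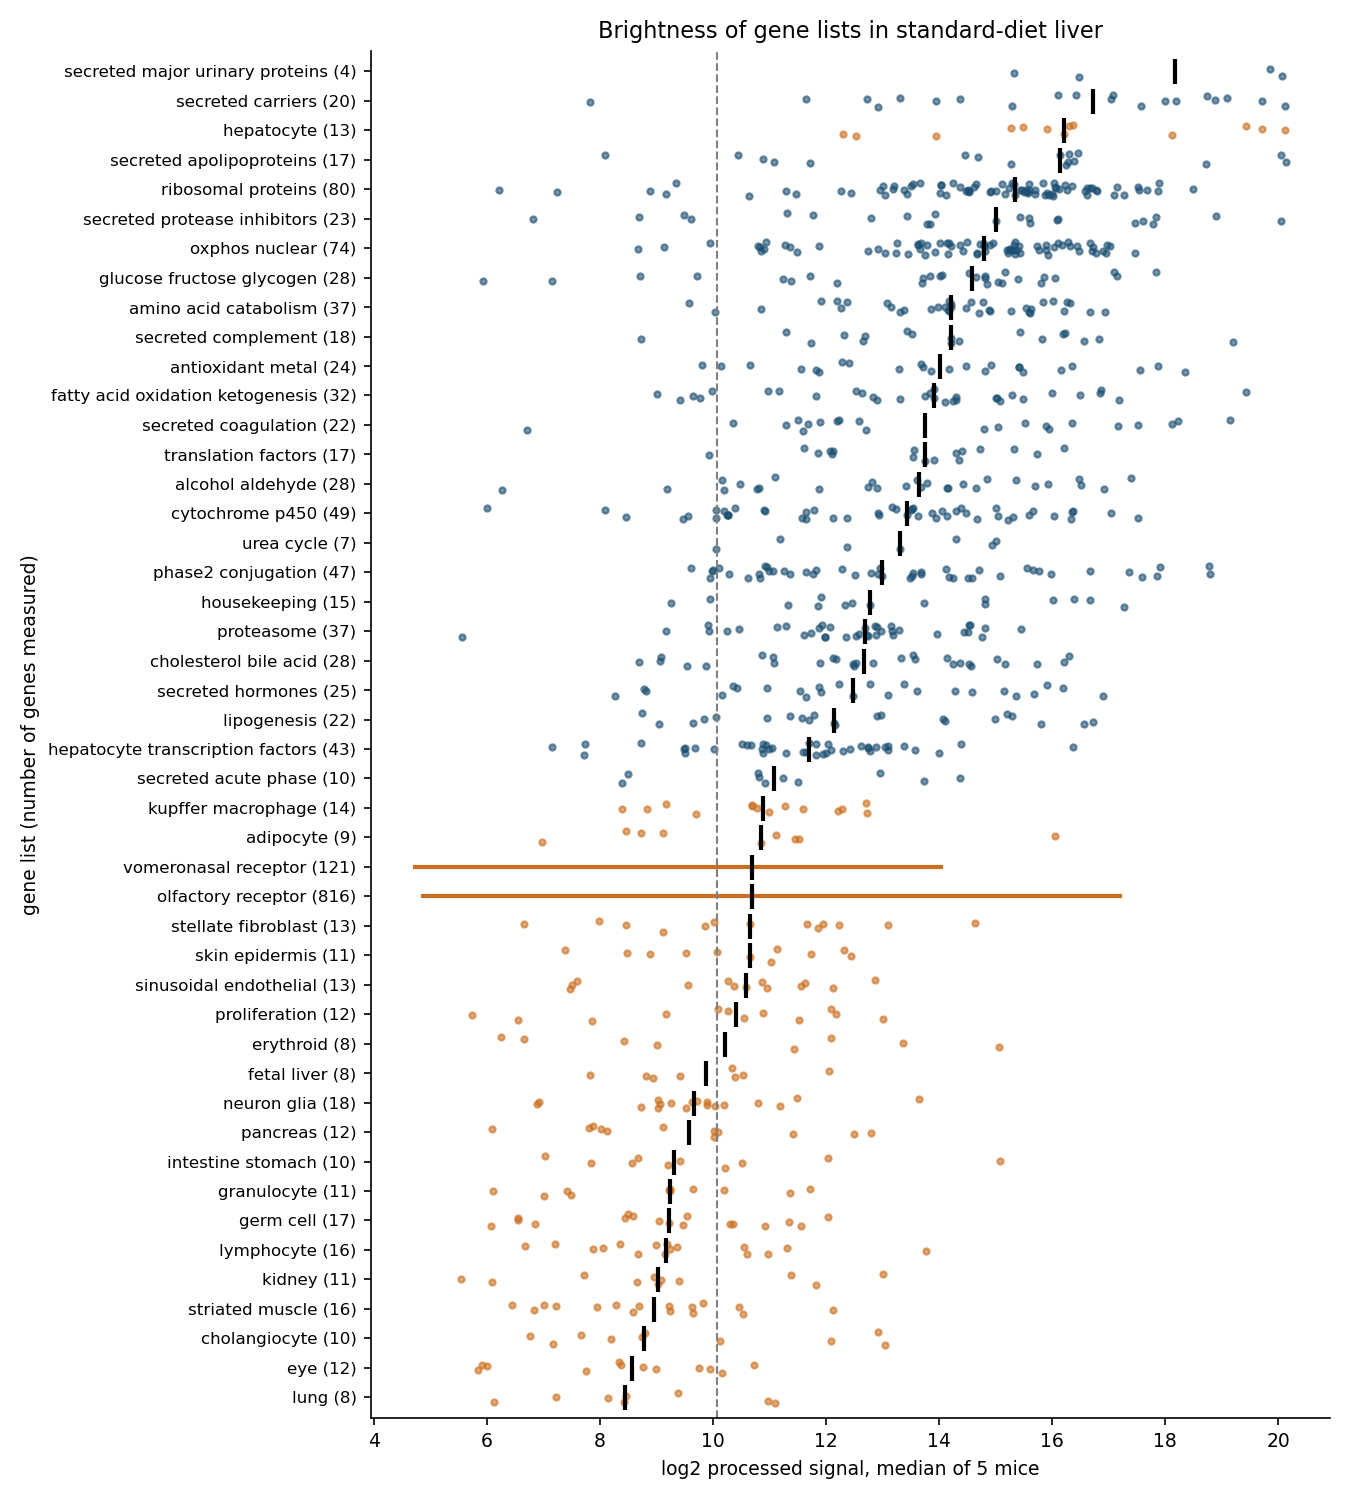
Log2 processed Cy3 signal, median of 5 mice (horizontal axis), for the genes of each list (vertical axis, with the number of genes measured). Blue points are genes of function lists, orange points are genes of cell type or tissue marker lists, orange lines span the 2 receptor families, black bars are list medians and the dashed line is the median of all genes, 10.07. Secreted, ribosomal and metabolic lists lie to the right, and most markers of other cell types and tissues lie around or left of the dashed line.

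Enzymes of fuel metabolism were bright as lists, but with several dim members in each. Fatty acid oxidation and ketogenesis had a median of 13.91 over 32 genes, with Fabp1, Scp2, a peroxisomal thiolase and sterol carrier (16.86, SD 0.16), and Acaa2, the mitochondrial thiolase (16.84, SD 0.07), among its brightest members. The 5 levels of Acaa2 lay between 16.73 and 16.92. The dim end held Slc25a20, the carnitine carrier of mitochondria (9.42, SD 0.30), and Acot2, a thioesterase (9.02, SD 0.27). Glucose, fructose and glycogen metabolism had a median of 14.59 over 28 genes. Fbp1 of gluconeogenesis (17.15, SD 0.64) and Khk, ketohexokinase (17.10, SD 0.20), were among the 100 brightest. Fbp1 read 16.92, 16.10, 17.21, 17.15 and 17.88, lowest in mouse 2 and highest in mouse 5. Pygl, liver glycogen phosphorylase, read 15.85 (SD 0.31). The fructose carrier Slc2a5 was dim at 8.71 (SD 0.45), and the probe for Eno1, the enolase of liver glycolysis, was well above background on no array (5.94, SD 0.47).

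Fatty acid synthesis had a lower median, 12.15 over 22 genes, and 2 very bright members that varied between mice. Scd1, the desaturase that makes oleic acid, read 17.09, 15.27, 16.72, 15.60 and 17.49, with mice 2 and 4 clearly below the rest. Fasn, fatty acid synthase, read 16.56, 16.25, 16.75, 15.96 and 17.60. Elovl5, a fatty acid elongase, read 15.83, 15.39, 15.80, 15.10 and 16.53. All 3 genes were highest in mouse 5, and mice 2 and 4 were the 2 lowest for each. These levels were not scaled between arrays. The 75th percentile of log2 signal was highest on the array of mouse 5 (11.12) and lowest on that of mouse 4 (10.64). The part of this in the differences between mice was not tested. Dgat2, which makes triglyceride, read 14.44, 15.54, 15.20, 15.03 and 16.04, highest in mouse 5 but lowest in mouse 1. Gpam, the first enzyme of glycerolipid synthesis, was dim at 8.75 (SD 0.57).

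Amino acid, one-carbon and purine catabolism had a median of 14.21 over 37 genes. Uox, uricase (16.93, SD 0.32), and Glud1, glutamate dehydrogenase (16.67, SD 0.21), were among the 100 brightest. Agxt, which clears glyoxylate (16.32, SD 0.32), Gnmt, a glycine methyltransferase (16.26, SD 0.54), and Tat, tyrosine aminotransferase (16.20, SD 0.37), followed. Gnmt was lowest in mouse 2 at 15.28 and between 16.26 and 16.75 in the other mice. The urea cycle had a median of 13.30 over 7 genes, none among the 100 brightest. All 7 were well above background in every mouse, as were 84.2% of all genes. Ass1, argininosuccinate synthetase, read 15.00 (SD 0.22), Arg1, arginase, 14.94 (SD 0.27) and Otc, ornithine transcarbamylase, 14.30 (SD 0.36). The ornithine carrier Slc25a15 read 10.06 (SD 0.20).

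Cholesterol and bile acid genes had a median of 12.68 over 28 genes, and none was among the 100 brightest. Abcb11, the bile salt export pump, read 15.83, 16.30, 16.29, 16.44 and 16.68 (SD 0.31). Slc27a5, which activates bile acids for conjugation, read 16.21 (SD 0.32) and Hsd3b7 of bile acid synthesis 15.74 (SD 0.31). Cyp8b1, the sterol 12-alpha-hydroxylase, was dim at 8.70 (SD 0.47), and Akr1d1, a reductase of the same pathway, read 9.57, 7.31, 9.25, 8.84 and 9.06, lowest in mouse 2.

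Enzymes that handle foreign compounds ranged from very bright to background, and the brightest of them, Ces1c and Gstp1, saturated on no array. Microsomal cytochromes P450 had a median of 13.43 over 49 genes, with Cyp2d26 (17.51, SD 0.14) and Cyp2d10 (17.05, SD 0.10) among the 100 brightest. Cyp2e1, the ethanol-oxidising form, read 16.37 (SD 0.25), Cyp2d9, a male-biased form, 16.34 (SD 0.15) and Cyp2f2 16.34 (SD 0.35). Cyp1a1, which is induced by aryl hydrocarbons, was well above background on no array at 5.93, 6.01, 7.16, 6.26 and 5.70, and Cyp2c38 read 8.09 (SD 0.32). Conjugation and reduction genes had a median of 12.99 over 47 genes. Bright were the carboxylesterases Ces1c (18.79, SD 0.25) and Ces3b (17.84, SD 0.20), and the glutathione transferases Gstp1, Mgst1 (17.90, SD 0.27), Gstm1 (17.58, SD 0.25) and Gsta3 (17.36, SD 0.42). Among alcohol and aldehyde enzymes (median 13.65 over 28 genes) Akr1c6, a steroid-reducing aldo-keto reductase, read 17.40 (SD 0.45), Adh1, the liver alcohol dehydrogenase, 16.91 (SD 0.34) and Aldh1a1, retinal dehydrogenase, 16.48 (SD 0.12). Adh7, the stomach form, was well above background on no array (6.27, SD 0.49).

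Antioxidant and metal-handling genes had a median of 14.02 over 24 genes. After Sod1 came Fth1, the heavy chain of ferritin (17.88, SD 0.22), Gpx1, glutathione peroxidase (17.55, SD 0.35), and Cat, catalase (16.36, SD 0.18). Nqo1, a quinone reductase, was below the median of all genes at 9.81 (SD 0.46). Car3, carbonic anhydrase III, in none of the lists, was the 24th brightest gene at 18.15, 18.71, 17.71, 17.65 and 17.97 (SD 0.43).

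The machinery shared by all cells was bright as lists. Cytosolic ribosomal proteins had a median of 15.33 over 80 genes. Rps18 (17.88, SD 0.21), Rpl7a (17.87, SD 0.15), Rps2 (17.67, SD 0.12) and Rpl37a (17.54, SD 0.11) followed Rplp1. Rps15a was the exception, with no array well above background at 7.17, 6.22, 5.72, 6.02 and 6.81, and its 1 probe is the only measure of it here. Rpl39l, a testis paralog, was dim at 7.24 (SD 0.65). Nuclear-encoded subunits of the respiratory chain and ATP synthase had a median of 14.79 over 74 genes, led by Uqcrq of complex III (17.47, SD 0.25), Ndufa13 of complex I (17.02, SD 0.22) and Cox6a1 of complex IV (16.96, SD 0.18). The probe matched to Uqcrq is named Uqcrb in the files, and its match was not checked here. Cox7b2, a testis form, was the dimmest at 8.67 (SD 0.60). Translation factors had a median of 13.75 over 17 genes. The proteasome was lower, with a median of 12.69 over 37 genes and Psmb3 its brightest at 15.45 (SD 0.17). Psmb11, the subunit of the thymus, was well above background on no array (5.56, SD 0.52).

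Among genes often used as internal standards the spread in brightness was wide. Rplp0 read 17.26 (SD 0.15), Gapdh of glycolysis 14.81 (SD 0.18), Actb, beta-actin, 11.91 (SD 0.36) and Tbp, the TATA-binding protein, 9.25 (SD 0.23). Transcription factors of hepatocytes had a median of 11.70 over 43 genes and none among the 100 brightest. Atf5 was the brightest (16.37, SD 0.27), followed by Cebpb (14.39, SD 0.38), Stat3 (14.00, SD 0.16), Creb3l3 (13.57, SD 0.11) and Foxa2 (13.37, SD 0.61). Hnf4a, a master regulator of the hepatocyte, read 12.38, 12.30, 11.69, 11.30 and 12.45. Cebpa, also typical of liver, was dim at 8.73 (SD 0.14), and the deacetylase Sirt1 read 9.38, 9.24, 9.44, 9.54 and 9.83. Zhx2, a repressor of fetal liver genes, read 7.15 (SD 0.78) and was well above background on 2 arrays.

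The tissue was checked against its markers. All 13 measured hepatocyte markers were well above background in every mouse, a flag met by 84.2% of all genes and 86.6% of olfactory receptor genes. The median of the hepatocyte markers was 16.20, with Alb, Ahsg, Fabp1 and F2 among the 100 brightest and Hnf4a the dimmest. Kupffer cell and macrophage markers, 14 of 14 well above background in every mouse, had a median of 10.89, with Csf1r (12.73, SD 0.17), Lyz2 (12.70, SD 0.46), Marco (12.29, SD 0.50) and Cd5l (12.22, SD 0.35) the brightest. Endothelial markers had a median of 10.58 over 13 genes, with Dnase1l3 (12.87, SD 0.10) and Kdr (12.12, SD 0.24) at the top and Pecam1 (7.48, SD 0.53) well above background on 1 array. Stellate cell and fibroblast markers had a median of 10.66 over 13 genes, from Dcn, decorin (14.64, SD 0.29), to Des, desmin (6.65, SD 0.39). These 3 lists lay close to the median of all genes.

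Markers of bile duct cells were lower, with a median of 8.77 over 10 genes. Spp1 (13.04, SD 0.19) and Muc1 (12.91, SD 0.33) led them, and the keratin Krt19 (6.76, SD 0.41) and the surface protein Epcam (7.17, SD 0.11, no array) were near background. Lymphocyte markers had a median of 9.17 over 16 genes, with Cd4 well above background on no array (6.67, SD 0.69). Cd3e appeared bright at 13.77 (SD 0.20), but its second probe read 9.38 and Cd3d and Cd3g, the other chains of the same receptor complex, read 9.15 and 8.99. Granulocyte markers had a median of 9.24 over 11 genes, with S100a8 at 6.10 (SD 0.28) and well above background on no array. Of the red cell genes, Hbb-bt read 15.07, 15.55, 13.40, 15.84 and 14.30 and Hba-a1 13.49, 13.36, 12.34, 14.13 and 12.75. For both globins mice 3 and 5 were the 2 lowest and mouse 4 the highest. The probe matched to Hbb-b1 was well above background on no array (6.65, SD 0.27). The probes matched to Hbb-bt (medians 15.07, 13.75 and 13.71) are also named Hbb-b1 in the files. The split between these genes thus depends on how probes were matched.

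The sex-linked genes went with the label of male mice in part. On the Y chromosome Kdm5d read 11.27 (SD 0.22), Eif2s3y 11.02 (SD 0.37) and Ddx3y 9.32 (SD 0.53), all well above background in every mouse, and Uty read 6.39 (SD 0.45) with 1 array well above background. Xist, the RNA of the inactive X chromosome, is made in female cells, and its 3 probes read 12.25, 7.96 and 5.63, the dimmest on no array well above background. The brightest of the 3 probes is not named Xist in the files, and its match to the gene was not checked here.

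Being well above background did not separate liver genes from genes that liver is not known to use. The flag was met on all 5 arrays by 29948 of 41174 probes (72.7%), and on no array by 674 of 15940 genes (4.23%). Olfactory receptors, which detect odours in the nose, served as a yardstick. Of 816 olfactory receptor genes measured, 707 (86.6%) were well above background in every mouse, close to the 84.2% of all genes, and their median was 10.69, above the 10.07 of all genes. Their 95th percentile was 12.94, and 1408 genes (8.83%) were brighter than that. By this stricter measure 85 of 139 secreted genes (61.2%) and 70 of 80 ribosomal protein genes (87.5%) stood clear, but 8 of 43 hepatocyte transcription factors and 0 of 14 macrophage markers. Brightness of Hnf4a, Sirt1, Actb or the markers of minor cell types thus lay in a range that olfactory receptor probes also reached. A few receptor probes were far brighter, with Olfr1153 at 17.19, 17.51, 17.18, 17.20 and 17.68, the 55th brightest gene, and Olfr571 at 16.03 (SD 0.04). Vomeronasal receptors had a median of 10.69 over 121 genes, like the olfactory receptors.

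Markers of tissues absent from liver lay mostly below the median of all genes. Median levels were 8.45 for 8 lung genes, 8.57 for 12 eye genes, 8.96 for 16 muscle genes, 9.03 for 11 kidney genes and 9.22 for 17 germ cell genes. Sftpa1, a lung surfactant protein (6.13, SD 0.29), and Cela2a, a pancreatic elastase (6.10, SD 0.27), were well above background on no array. Some were bright all the same, such as Aqp2, the water channel of the kidney duct (13.01, SD 0.22), and Syn1 of synapses (13.65, SD 0.30). Of 12 proliferation genes, Birc5 read 13.01 (SD 0.25) and Tpx2 5.73 (SD 0.19), so the list had no common level. Pancreas, neuron and intestine markers had medians of 9.57, 9.67 and 9.31, fetal liver genes 9.88, and skin and fat cell genes 10.65 and 10.84, slightly above the median of all genes. Taste receptors stood at 10.33.

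Different probes of a gene often disagreed. For the 4102 genes with 2 or more probes, the brightest and dimmest differed by a median of 1.82 log2 units, and by over 4 for 558 genes. Among the 100 brightest genes 35 had several probes, with a median range of 2.90. Sod1 had probes from 18.34 down to 8.43 and Rps18 from 17.88 to 8.28. These ranges exceed the SD between mice of both genes, so the choice of probe moved their place in the order far more than the choice of mouse.

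The pool on the Cy5 channel gave nearly the same order, with a rank correlation of 0.982 across genes and 79 of the 100 brightest shared, but a small group of genes stood apart. In the medians of the 5 arrays, 21 of 15940 genes (0.132%) were brighter in the pool by over 2 log2 units, 20 of them on every array, and 8 genes (0.0502%) were brighter in the mice by over 2. These genes were picked out after their values were seen, the pool is 1 RNA hybridised 5 times, and no dyes were swapped, so the dye and the RNA cannot be told apart.

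Saa3, a serum amyloid made in inflamed tissue, had log2 levels of 10.80, 10.70, 11.15, 10.74 and 10.81 in the mice and 16.56, 16.60, 16.46, 16.26 and 16.69 in the pool, a mean difference of 51.0-fold. Saa1 had a median of 12.96 in the mice and was saturated in the pool on all 5 arrays, at least 43.9-fold brighter, and Saa2 was at least 15.7-fold brighter in the same way. The mice and the pool did not overlap on any array for these 3 genes. The metallothioneins Mt2 and Mt1, which bind zinc, had medians of 11.81 and 10.65 in the mice and 15.96 and 13.66 in the pool, which is 17.5-fold and 8.37-fold in the means. Lcn2 read 8.39 in the mice and 11.58 in the pool (8.64-fold), S100a9, a granulocyte protein, 9.24 and 12.13 (6.74-fold), and Orm2, orosomucoid, 13.31 and 15.41 (4.04-fold). The fat cell genes Cidea, a lipid droplet protein (9.82 and 13.95), and Cfd (8.72 and 11.89) were in the group as well. Cidea was uneven among the mice, at 9.82, 11.87, 9.44, 8.94 and 10.19, and below the pool in all of them. Of the 9 fat cell markers measured, the pool was higher on all 5 arrays for 3 (33.3%), against 22.9% of all genes, and lower on all 5 for 1. The median difference of these 9 markers was -0.021 log2 units, so the list as a whole did not stand apart.

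The pool was also the brighter for most genes of the acute phase and macrophage lists. The pool was above the mouse on all 5 arrays for 8 of 10 acute phase genes (median difference 1.15 log2 units) and for 11 of 14 macrophage markers (1.21), against 22.9% of all genes (0.018). Crp and Il1rn differed in direction between arrays, and C1qa, a complement gene of macrophages, was slightly lower in the pool on all 5 arrays. Ctss, a cathepsin of macrophages, read 11.27 in the mice and 13.74 in the pool, and Clec4f, a Kupffer cell receptor, 10.78 and 12.23. Hp, haptoglobin, also an acute phase protein, read 18.19 in the mice, and its pool signal of 18.37 was saturated on all 5 arrays and so is only a lower bound. For hepatocyte markers the pool was above the mouse on all 5 arrays for 0 of 13 and below it for 7, against 19.5% of all genes below, and the Cy5 ceiling, near 18.36, lies under the mouse levels of the brightest of them. For 5 of the 11 granulocyte markers the pool was not higher on every array. Their defining member S100a8 was well above background in no mouse, at 6.10, and read 9.83 in the pool.

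In the other direction the largest difference was that of Pigt, a subunit of the enzyme that attaches glycolipid anchors to proteins. It read 17.80, 17.98, 17.45, 17.58 and 16.78 in the mice and a median of 13.30 in the pool, and its second probe read 10.42 in the mice. Lars2, the mitochondrial leucyl-tRNA synthetase (16.42 against 14.05), and Scd1 (16.72 against 14.51) were among the 8 genes as well. Scd1 was above the pool in every mouse, by 0.77 in mouse 2 to 2.67 in mouse 5.

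**Figure D4:**
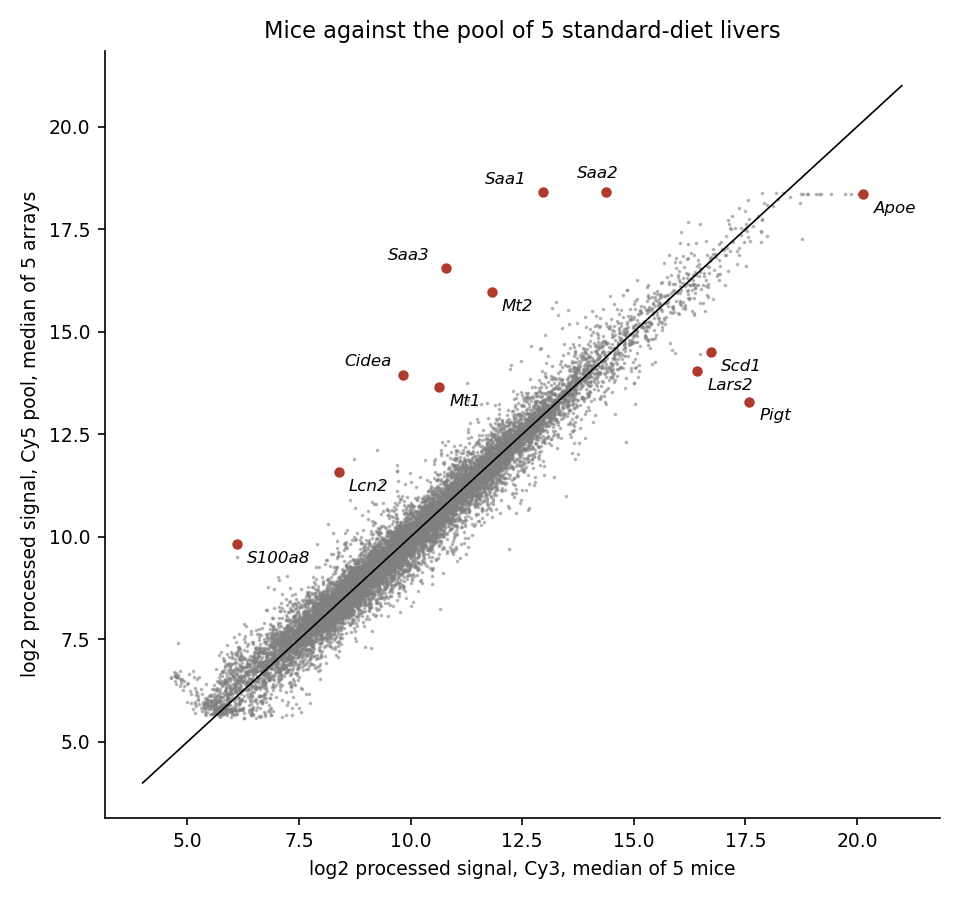
Log2 processed Cy5 signal of the pool (vertical axis, median of 5 arrays) against log2 processed Cy3 signal of the mice (horizontal axis, median of 5 mice), with 1 grey point per gene and the line of equal signal. Red points are named genes, and Saa1, Saa2, Saa3, Mt1, Mt2, Cidea, Lcn2 and S100a8 lie far above the line while Pigt, Lars2 and Scd1 lie below it. The row of points at 18.36 on the right is the Cy5 ceiling, where Apoe lies.

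Differences between the mice were mostly small. After each array was scaled to its 75th percentile, the median SD over the 5 mice was 0.253 log2 units for all genes and 0.225 for the 500 brightest, against 0.174 and 0.101 for the Cy5 pool on the same arrays. The SD between mice was larger than that of the pool for 459 of the 500 brightest genes (91.8%) and for 11984 of all genes (75.2%). The pool carries no differences between animals, but it was read in the other dye, and the part of the arrays' unequal stretch of bright Cy3 signals in the SD was not tested. The 10 most variable of the 500 brightest genes fell into 2 kinds.

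Hbb-bt (SD 1.08 between mice, 0.140 in the pool), Syvn1, a ubiquitin ligase of the endoplasmic reticulum (1.03 and 0.0932), Creld2, a chaperone of the same organelle (0.918 and 0.0793), Pck1 of gluconeogenesis (0.843 and 0.0766), Scd1 (0.838 and 0.252) and Lrg1, a secreted glycoprotein (0.804 and 0.134), varied more between mice than in the pool. The pool of Scd1 was itself less steady than that of the other 5, from 13.78 to 14.82. Syvn1 read 15.81, 17.96, 17.11, 15.26 and 16.60 and Creld2 14.81, 16.63, 16.48, 14.51 and 15.85. For both, mice 2 and 3 were the highest and mice 1 and 4 the lowest. Pck1 read 14.75, 16.82, 15.23, 16.04 and 16.53, lowest in mice 1 and 3. Lrg1 was lowest in mouse 5 at 13.64 and highest in mouse 3 at 15.45.

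Foxh1, a forkhead factor of the early embryo, Serpina3c, Olfr166 and Arl4d, a small GTPase, varied in both channels. Foxh1 read 15.24, 15.15, 14.05, 12.53 and 14.99 in the mice and 14.77, 14.72, 13.80, 12.25 and 14.97 in the pool. Serpina3c read 15.97, 15.61, 14.80, 13.18 and 15.62 in the mice and 15.65, 15.25, 14.36, 13.04 and 15.46 in the pool. All 4 genes were lowest in both channels on the arrays of mice 3 and 4, and the pool is the same RNA on each array. The image files were processed on 2 days, mice 1, 3 and 4 on one and mice 2 and 5 on the other. Before scaling, Pck1 was higher in both mice of the second day than in all 3 of the first, and Lrg1 was lower. After scaling, Lrg1 still separated by day, but Pck1 read 16.24 in both mouse 4 and mouse 5. Day and mouse cannot be told apart for these 2 genes. The other 8 did not separate by day. At the steady end, Rpl23a (SD 0.0321 between mice, 0.0811 in the pool), Hint1, a nucleotide hydrolase (0.0445 and 0.0552), and Ndufc2 of complex I (0.0510 and 0.0609) hardly differed between mice. Their SDs between mice lay below those of the pool, which is 1 RNA. Psme2, also at this end, went the other way (0.0497 and 0.0225).

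**Figure D5:**
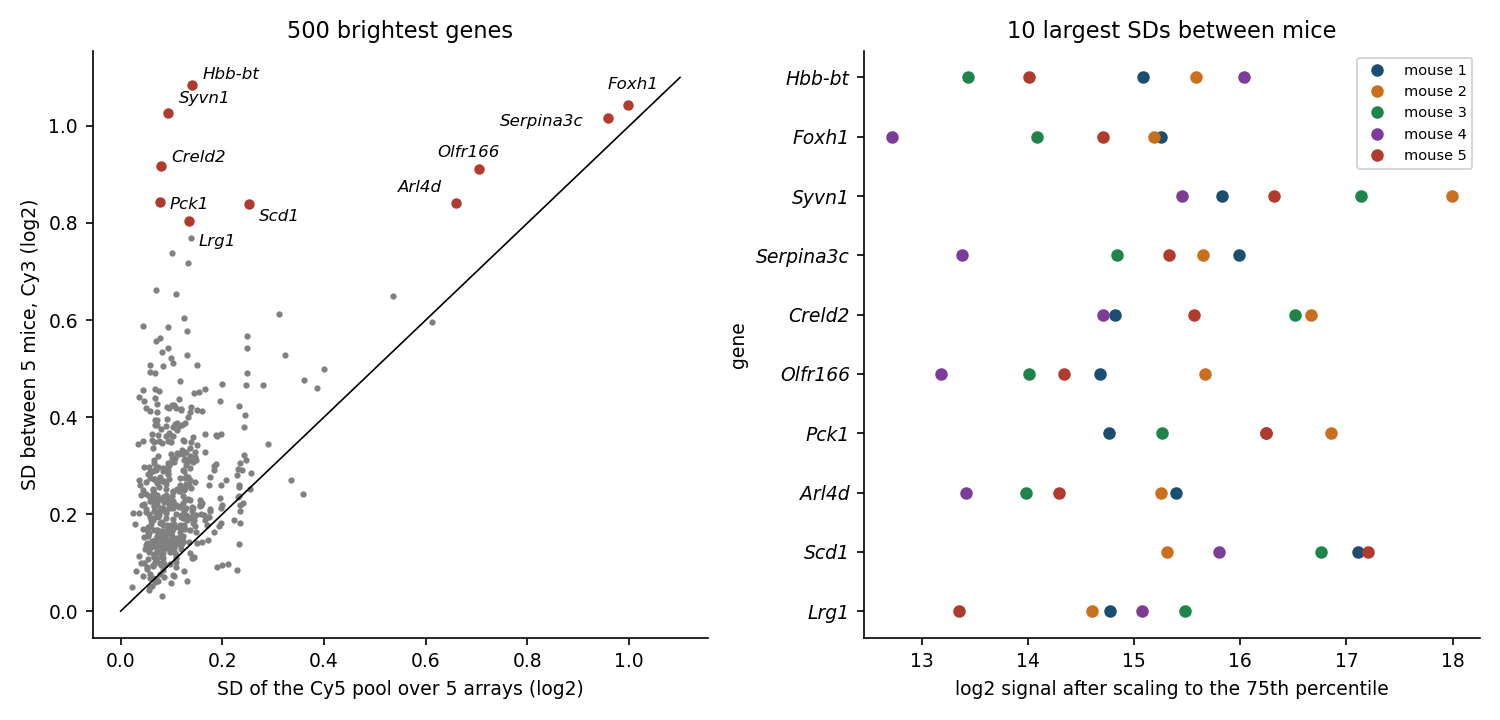
Left, the SD over 5 mice in Cy3 (vertical axis, log2) against the SD of the pool in Cy5 on the same arrays (horizontal axis, log2) for the 500 brightest genes, with the line of equal SD. Right, the scaled log2 Cy3 signal of each mouse (horizontal axis) for the 10 genes with the largest SD between mice (vertical axis). Most points lie above the line, and Foxh1, Serpina3c, Olfr166 and Arl4d lie near it at high SD in both channels.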

How the data were processed

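Liver RNA of 5 standard-diet mice was measured on 5 two-colour arrays. The other 9 arrays of the study were not used here. Qiagen RNeasy kits were used for extraction and a linear amplification for labelling, per the labels, and no array had its dyes swapped. Per the file headers, Agilent Feature Extraction 7.5.1 gave the deposited intensity values, whose processed signal is background-subtracted and dye-normalised. The processed signal was 3.61 to 8.64 times the net signal for net signals of 20 to 50 and 13.1 to 28.9 times above 10000, so bright genes are stretched upwards on the log2 scale. The authors also deposited a table of scores for 38354 probes. Its values correlated at 0.983 to 0.985 with the log2 processed Cy3 signal, with column medians from -0.0398 to -0.00323, and higher meant more RNA, but its scale and log base are not given in the sources used here.

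From the deposited intensities, log2 of the processed Cy3 signal was taken, 14 to 27 spots per array with an outlier flag were left out and spots of a probe were averaged. Of 41174 probes, 20852 were matched to 1 gene each in the RefSeq table of GRCm38.p6 (11450 by systematic name, 6962 by accession, 1502 by gene name, 938 by an older name). The 20322 unmatched probes kept the names of the files. No test across genes was made, as 1 group allows no comparison. Spread was computed after subtracting each array's 75th percentile.

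The genes and the 24 function and 25 marker lists were chosen with earlier results of these data known. Named were the 40 brightest genes, up to 6 brightest and 3 dimmest members of each function list, up to 4 brightest and any undetected members of each marker list, the 10 most variable of the 500 brightest genes, and Alb, Hnf4a, Xist, Ddx3y, Afp, Igf1, Sirt1, Actb and Gapdh. A few genes that this rule names are not reported here. Others named, such as Cebpa, Cd3d, the genes that differ from the pool and the steadiest genes, were chosen after their values were seen. Alternatives were other scalings, normexp (limma 3.58.1, R 4.3.3), the Cy5 channel, the deposited scores, other probe rules, other detection rules and leaving out each mouse. The detection limits from negative controls and olfactory receptors, the spread without scaling, and the counts of secreted genes without saturated genes or under the files' own names, were added after seeing the data. The steps were tested on simulated spots. The number of arrays limits the precision.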

Additional observations from a re-analysis of the deposited data

Results flagged for a closer look

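Single mice stood far from the other 4 in the results below, by a gap that was over 0.71 of the whole range. Chance alone gives this in about 1 in 20 groups, and 227 genes and 7 measures of the arrays were examined, of which 11 showed it, so the number is about what chance gives. The causes were not tested. Mup1 was highest in mouse 2 at 20.90 (next 20.04 in mouse 3), but both values are the ceilings of their arrays, so the gap is one between ceilings. Mup3 was highest in the same mouse at 16.28 (next 15.35). Rbp4 was lowest in mouse 1 at 18.33 (next 18.86), and so were the transcription factor Cebpb at 13.67 (next 14.36) and the Y-linked gene Kdm5d at 10.82 (next 11.21). In mouse 5 the Y-linked gene Eif2s3y was highest at 11.82 (next 11.11). Slc27a5 was lowest in mouse 2 at 15.53 (next 16.20), Aldh1a1 lowest in mouse 3 at 16.22 (next 16.45) and Opn1sw, a cone opsin near background, lowest in mouse 4 at 4.57 (next 5.81). Saa3 was highest in mouse 3 at 11.15 (next 10.81). The 95th percentile of the negative control spots was highest on the array of mouse 1, at a log2 of 6.97 (next 5.95).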

How the results depend on the processing

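The 100 brightest genes shared 94 with those after scaling to the 75th percentile or quantile normalisation, 95 with normexp, 89 with the deposited scores, 92 without saturated genes, 75 under the files' own names, 74 with the median over a gene's probes and 96 to 98 without a single mouse. The 92 was fixed in advance, since the 8 saturated genes left out were all among the 100 brightest. Secreted genes among them, 30 as reported, numbered 24 without saturated genes, 22 under the files' own names (both counted after seeing the data), 36 in the Cy5 pool and 29 to 32 in the other settings. The count of 29948 detected probes lay between 29966 and 37385 under the other flags, array numbers, channel and mice left out, was 35034 above the 95th percentile of negative controls and fell to 1623 above the 95th percentile of olfactory receptor probes, a stricter limit by its construction. The spread result of 459 genes lay between 414 (without mouse 2) and 464 without single mice, and was 439 with normexp and 443 without scaling. List percentiles moved beyond the spread between mice for 20 of 49 lists in the Cy5 pool and 32 of 49 with the median over probes, and for at most 11 under other settings. Large shifts were those of the macrophage list, from the percentile 64.9 to 81.9 in the pool, of the red cell list, from 51.9 to 75.1 with the deposited scores, of Lcn2, to 76.1 in the pool, and of Xist, from 85.2 to 17.2 with the median over probes. No paired analysis was possible because the results come from 1 group and from no test. Signals above the ceiling and near the level of olfactory receptor probes limit what these arrays can order.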

Other observations

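Of the 100 brightest probes, 25 could not be matched to a gene. The 11th brightest is described in the files as phosphacan, a proteoglycan of the nervous system, under the name AJ428208. It read 19.99, 20.62, 19.32, 19.27 and 18.75 in mice 1 to 5 and a median of 16.86 in the pool, so that it was brighter in the mice by 2.46 log2 units, more than any other unmatched probe among the first 100. The next brightest, a probe for mitochondrial Cox2, read 19.20, 19.72, 18.97, 18.60 and 19.36.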
